A study of Homo sapiens with 24 samples.

Results

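The genes described here are 8 members of the PARP family (PARP1, PARP2, PARP8, PARP9, PARP10, PARP11, PARP12 and PARP14) and DTX3L, the ubiquitin ligase that pairs with PARP9. They were listed by name with earlier results of these data known. Not all PARP genes are among them, so counts over the 9 do not stand for the whole family. They are 9 of the 60609 gene rows of an RNA-seq table. The table covers A549, an established human lung adenocarcinoma line, in 8 groups of 3 libraries. Cells took either a pool of siRNAs against BOP1 (siBOP1; BOP1 is a ribosome assembly factor) or an siRNA against firefly luciferase, absent from human cells (siFLuc), for 48 h. They were then left mock-treated or given interferon beta (IFN) at 1000 U/mL, for 8 or 12 h. The groups are thus siFLuc mock, siFLuc IFN, siBOP1 mock and siBOP1 IFN, each at 8 h and at 12 h. No group went without siRNA, and all come from a single transformed line, so other lung cell types are not represented. The libraries of each group are numbered 1, 2 and 4 in the table, and nothing in the labels says that they were separate cultures. The p-values below measure the spread between these libraries, which may be technical.

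PARP enzymes take ADP-ribose from NAD and attach it to proteins and nucleic acids. PARP1 and PARP2 build long chains of it at DNA breaks, while most other members add a lone ADP-ribose unit and work outside DNA repair. Type I interferon acts through ISGF3, a transcription factor complex that binds the interferon-stimulated response element of promoters, and several PARP genes are known interferon-stimulated genes. PARP9 and PARP14 carry macrodomains, modules that bind ADP-ribose. DTX3L forms a complex with PARP9 and belongs to the Deltex family of ubiquitin ligases. PARP10, PARP11 and PARP12 are mono-ADP-ribosyltransferases, and PARP8 is a less studied member of the same group.

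In the GENCODE 29 annotation of GRCh38, all 9 are protein-coding genes. PARP9 (chr3:122527924-122564577, minus strand) and DTX3L (chr3:122564238-122575203, plus strand) lie head to head and share 340 bases at their starts. PARP14 (chr3:122680618-122730840, plus strand) begins 105 kb beyond the end of DTX3L. The other members lie apart from each other: PARP1 at chr1:226360691-226408079 (minus), PARP2 at chr14:20343582-20357905 (plus), PARP8 at chr5:50665899-50846522 (plus), PARP11 at chr12:3791047-3873448 (minus) and PARP12 at chr7:140023744-140063721 (minus). PARP10 lies apart as well and overlaps GRINA, on the other strand, over 3358 bases. The library kit keeps strand, but how reads were counted is not given in the sources used here. The values of PARP9, DTX3L and PARP10 could therefore hold reads of their partners.

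Promoter windows from RefSeq on GRCh38.p14, 250 bases before to 50 after each start, were matched for 8 of the 9 genes (11 windows); PARP10 had no entry. They were searched on both strands for the core of the interferon-stimulated response element, GAAA, any 2 bases and GAAA. A match was present in windows of DTX3L, PARP9, PARP14 and PARP12 and in none of PARP1, PARP2, PARP8 and PARP11. Of all 35116 windows, 3.57% held it. The matches are shown because the 4 genes that carry them are among those with large differences under IFN below. PARP8, which was also higher in all 4 IFN comparisons, had no match, and neither did another window of PARP9. PARP10, with the largest difference, had no window to search. Each is given 5′ to 3′ on the strand of its gene, with the matched letters in capitals:
DTX3L, chr3:122564322-122564351, plus strand: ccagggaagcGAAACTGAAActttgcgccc
PARP9, the same bases read on the minus strand: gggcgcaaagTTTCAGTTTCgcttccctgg
PARP14, chr3:122680800-122680829, plus strand: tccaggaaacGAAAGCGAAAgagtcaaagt
PARP12, chr7:140062942-140062971, minus strand: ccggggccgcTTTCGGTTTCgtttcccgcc
DTX3L and PARP9 thus share a single match. Counting the first transcribed base as 0, it covers bases -6 to 3 of DTX3L and -41 to -32 of an annotated start of PARP9. The match spans bases -29 to -20 of PARP14 and -10 to -1 of PARP12. The gamma-activated site, TTC, any 3 bases and GAA, was in 7.66% of all windows and in those of PARP14 and PARP2:
PARP14, chr3:122680789-122680818, plus strand: cctgggagttTTCCAGGAAacgaaagcgaa
PARP2, chr14:20343471-20343500, plus strand: ttatggtgatTTCCCAGAAcacatagcgac
The flank of this PARP14 sequence runs into the other PARP14 match. A match is a string of letters, not a measured binding site.

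The values are TPM, transcript levels scaled for transcript length and library total, and each library sums to 1000000. Sequencing depth cannot be read from them. Each library had 13844 to 14509 genes at 1 TPM or more, and libraries of a group correlated across genes with r of 0.961 to 0.988. BOP1 stood at 23.5% to 29.6% of its siFLuc level in the 4 siBOP1 groups, with no overlap. All 11 A549 markers were at 1 TPM or more, summing to 19246 to 23011 TPM per library. Of 5 leukocyte markers, CD3E was at 0 in every library and the list summed to 1.83 to 5.53 TPM; the 3 endothelial markers summed to 0.034 to 0.426 TPM and the 4 fibroblast markers to 5.39 to 19.3 TPM. CD14, at a mean of 3.39 TPM, and COL1A1, at 12.5 TPM, made up most of the leukocyte and fibroblast sums.

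Interferon beta raised 6 of the 9 genes in both siRNA backgrounds and at both times: PARP8, PARP9, PARP10, PARP12, PARP14 and DTX3L. PARP1, PARP2 and PARP11 did not pass the test in any of the 4 comparisons. At an unadjusted p under 0.05, PARP2 passed under siBOP1 at both times and PARP1 at 12 h. So did 4486 and 4381 of all 16062 genes under siBOP1 at 8 and 12 h. The test was limma on log2(TPM + 1) over 16062 genes, with an adjusted p under 0.05. Among all genes tested, 5.77% were called higher under siFLuc at 8 h, 7.06% at 12 h, and 5.99% and 7.17% under siBOP1 at 8 and 12 h. Genes higher and lower numbered 927 and 814, 1134 and 1032, 962 and 1464, and 1152 and 1218 in that order; after median-of-ratios rescaling they numbered 1141 and 512, 1373 and 803, 1324 and 698, and 1421 and 856. The median difference of the 9 was 3.55, 3.43, 3.41 and 3.17 log2 units in that order, and that of all genes -0.09, -0.06, -0.14 and -0.08. PARP10 entered the test through its IFN libraries, since a single mock library reached 1 TPM. A gene that passes the filter this way was selected for higher IFN values. The other 8 were above 1 TPM in every library. In cell populations, more RNA per cell and more cells with the RNA cannot be told apart.

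**Figure D1:**
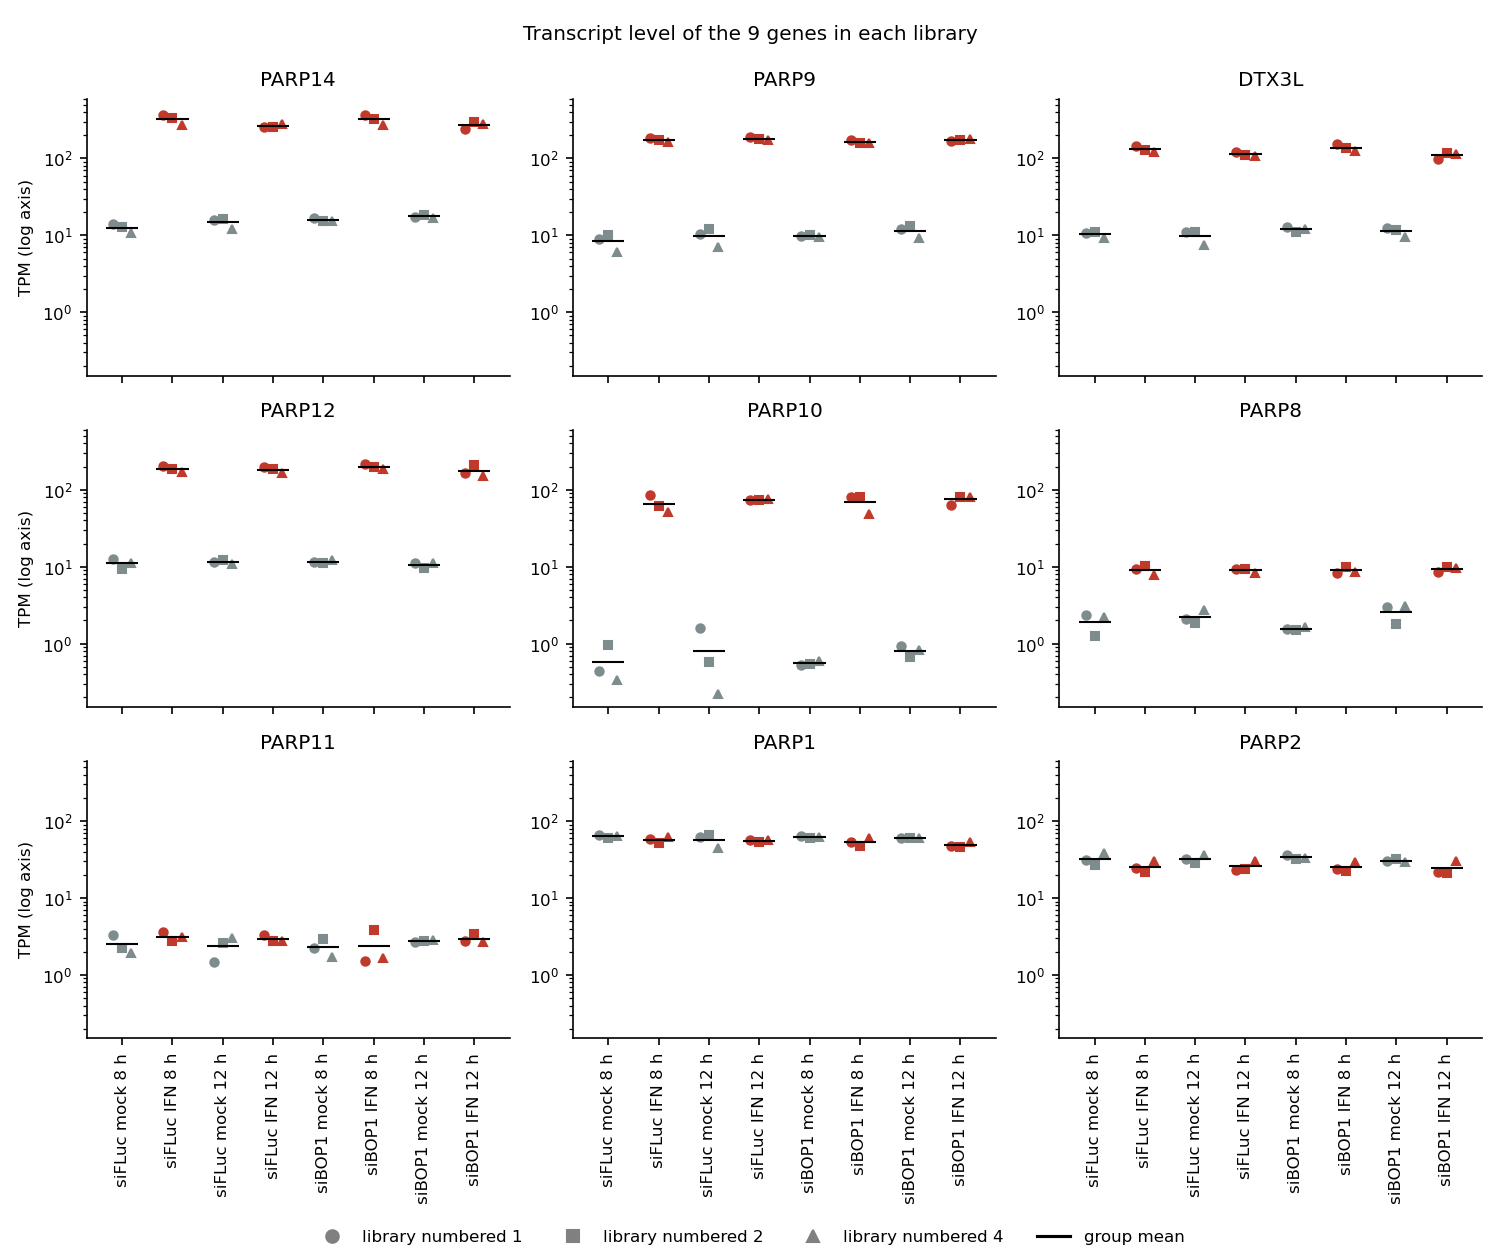
Level of each gene in every library, as TPM on a log axis, by group; grey marks are mock and red marks IFN libraries, shapes give the library number and black bars the group mean. PARP14, PARP9, DTX3L, PARP12, PARP10 and PARP8 separate completely between IFN and mock, while PARP11 overlaps in all 4 pairs of groups and PARP1 and PARP2 in 3 of 4 each. The share of all genes whose groups do not overlap was not computed.

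PARP14, a macrodomain mono-ADP-ribosyltransferase, was the most abundant of the 9 under IFN. In the order of libraries 1, 2 and 4, it stood at 14.1, 12.96 and 10.8 TPM in siFLuc mock libraries at 8 h, 15.8, 16.4 and 11.98 at 12 h, and in siBOP1 mock libraries at 16.8, 15.3 and 15.6 TPM at 8 h and 17.6, 18.7 and 16.9 at 12 h. Under IFN it read 365, 335 and 269 TPM under siFLuc at 8 h, 257, 256 and 277 at 12 h, and under siBOP1 366, 324 and 273 TPM at 8 h and 238, 295 and 277 at 12 h. Every IFN library was above every mock library, and the highest PARP14 readings came from libraries 1 and 2 at 8 h in both siRNA backgrounds. The ratio of group means was 25.6 and 17.9 under siFLuc at 8 and 12 h, and 20.2 and 15.3 under siBOP1. On the log2(TPM + 1) scale the differences were 4.57, 4.08, 4.24 and 3.85 (SE 0.13; limma adjusted p from 1.49e-16 to 2.28e-15).

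PARP9, the macrodomain partner of DTX3L, stood at 8.99, 10.1 and 6.07 TPM in siFLuc mock libraries at 8 h, 10.4, 11.97 and 7.03 at 12 h, and in siBOP1 mock libraries at 9.81, 10.2 and 9.59 TPM at 8 h and 12.1, 13.2 and 9.31 at 12 h. IFN libraries gave 183, 172 and 164 TPM under siFLuc at 8 h, 189.9, 178 and 175 at 12 h, and under siBOP1 174, 159.8 and 159.6 TPM at 8 h and 171, 172 and 179 at 12 h. The IFN groups lay within a narrow band and did not overlap mock, while library 4 was the lowest mock library in each of the 4 mock groups. Group means rose 20.7- and 18.4-fold under siFLuc and 16.7- and 15.1-fold under siBOP1. The log2 differences were 4.24, 4.10, 3.93 and 3.81 (SE 0.16; limma adjusted p from 7.41e-15 to 4.82e-14).

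DTX3L, the ubiquitin ligase, was at 10.9, 11.1 and 9.27 TPM in siFLuc mock libraries at 8 h, 10.9, 10.96 and 7.47 at 12 h, and in siBOP1 mock libraries at 12.9, 11.02 and 12.3 TPM at 8 h and 12.7, 11.7 and 9.51 at 12 h. With IFN it was at 147, 129 and 122 TPM under siFLuc at 8 h, 122, 112 and 106 at 12 h, and under siBOP1 153, 136 and 126 TPM at 8 h and 97.7, 117 and 114 at 12 h. Mock and IFN groups again did not overlap, and within IFN the 8 h means of 133 and 138 TPM were above the 12 h means of 114 and 109 TPM. The ratios of group means were 12.7, 11.6, 11.5 and 9.69 in the same order of groups. In log2 units these were 3.55, 3.43, 3.41 and 3.17 (SE 0.13; limma adjusted p from 1.13e-14 to 8.06e-14).

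**Figure D2:**
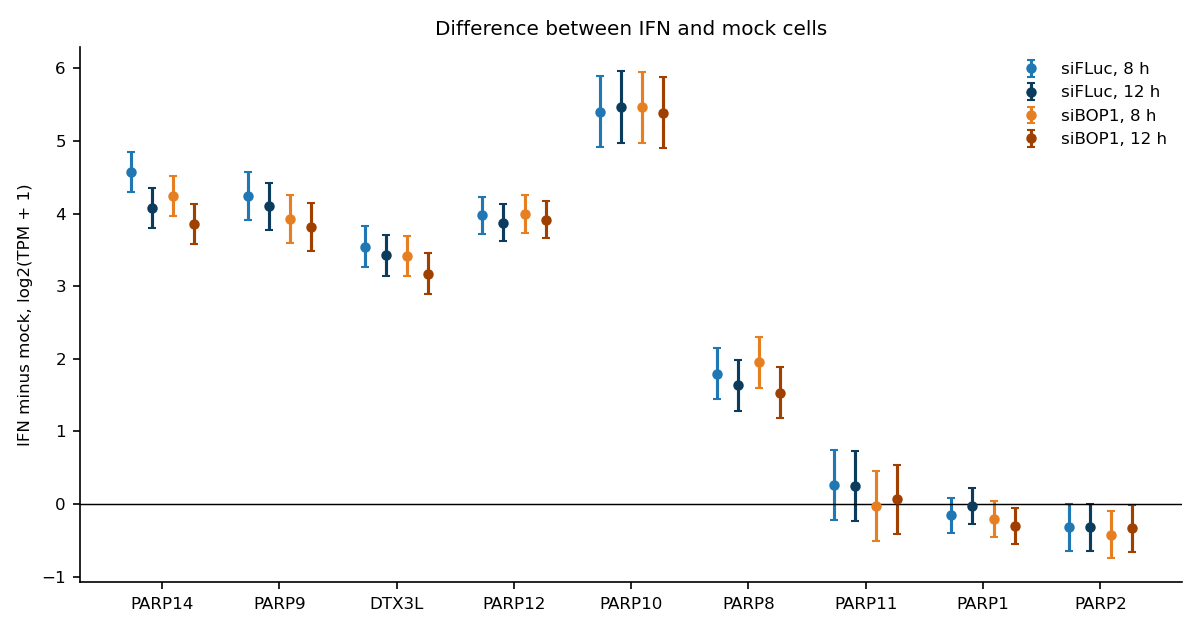
Difference between IFN and mock libraries for each gene, in log2(TPM + 1) units, with 95% confidence intervals from limma, in the 4 combinations of siRNA and time (3 against 3 libraries each). PARP10 lies at 5.39 to 5.47, PARP14, PARP9, PARP12 and DTX3L between 3.17 and 4.57, PARP8 at 1.54 to 1.96, PARP11 at -0.03 to 0.26, PARP1 at -0.31 to -0.03 and PARP2 at -0.42 to -0.32.

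PARP9 and DTX3L, which share their start region, did not rise by the same amount. PARP9 divided by DTX3L was 0.794 ± 0.127 and 0.996 ± 0.084 (SD, n = 3) in siFLuc mock cells at 8 and 12 h, and 0.823 ± 0.089 and 1.02 ± 0.09 in siBOP1 mock cells. With IFN the ratio was 1.31 ± 0.06 and 1.60 ± 0.05 under siFLuc and 1.19 ± 0.07 and 1.60 ± 0.14 under siBOP1. Within each siRNA and time, every IFN library had a higher ratio than every mock library. Averaged over the 4 strata, the log2 ratio rose by 0.63 (two-sided exact permutation test within strata, p = 1.25e-05, the smallest that the 160000 arrangements can give; 0.0001 after adjustment over 8 ratio tests).

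PARP14 divided by PARP9 moved less. It was 1.55 ± 0.25 and 1.53 ± 0.17 in siFLuc mock cells and 1.62 ± 0.11 and 1.56 ± 0.22 in siBOP1 mock cells (SD, n = 3). Under IFN it was 1.86 ± 0.19 at 8 h and 1.46 ± 0.12 at 12 h under siFLuc, and 1.95 ± 0.21 and 1.55 ± 0.16 under siBOP1. The IFN means were above mock at 8 h and slightly below it at 12 h. The mean log2 difference was 0.16 (two-sided exact permutation p = 0.025, adjusted 0.0333 over the 8 tests), but 0.12 with p = 0.0964 when the pseudocount was 0.1 and 0.26 with p = 0.0185 from libraries 1 and 2 alone. Leaving out the siBOP1 IFN 12 h library numbered 2 gave 0.15 with an exact permutation p of 0.0509.

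**Figure D3:**
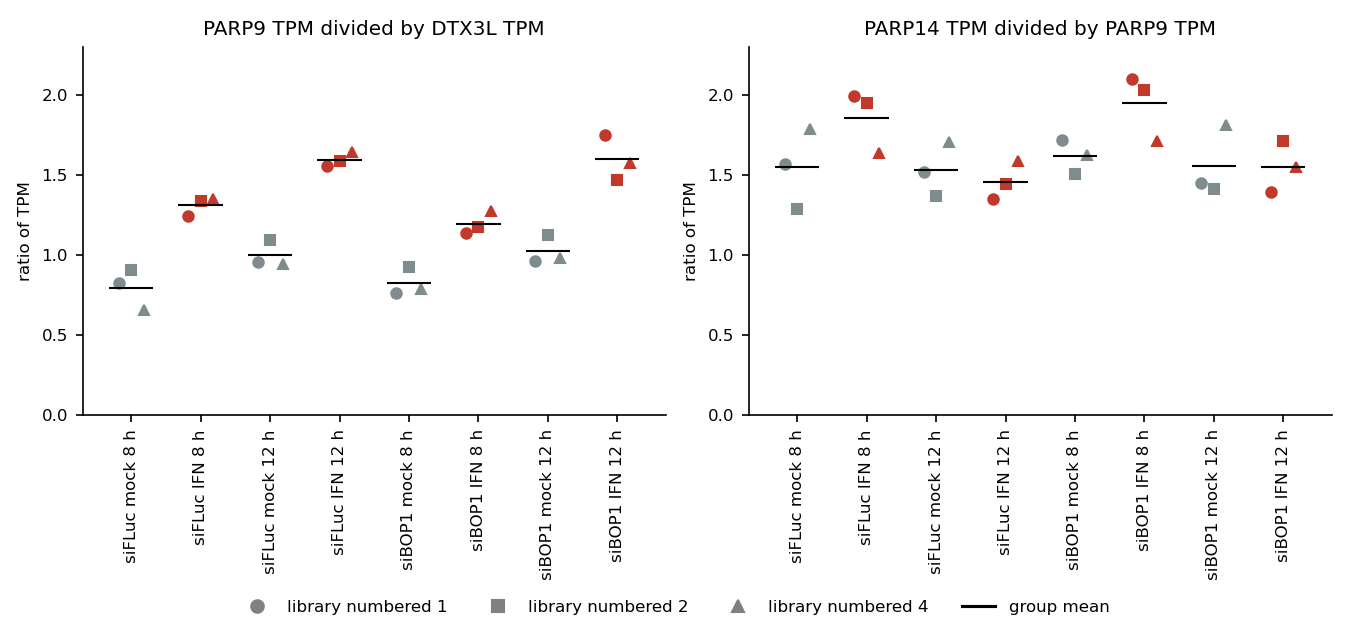
Ratio of TPM values in each library, PARP9 to DTX3L on the left and PARP14 to PARP9 on the right, by group; grey marks are mock, red marks IFN, shapes give the library number and bars the mean. The PARP9 to DTX3L means are 0.794 to 1.02 in mock and 1.19 to 1.60 in IFN groups; the PARP14 to PARP9 means are 1.86 and 1.95 with IFN at 8 h and 1.46 and 1.55 at 12 h.

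PARP12, a mono-ADP-ribosyltransferase with CCCH zinc fingers, was at 12.8, 9.204 and 11.1 TPM in siFLuc mock libraries at 8 h, 11.6, 12.2 and 10.9 at 12 h, and in siBOP1 mock libraries at 11.4, 11.1 and 12.3 TPM at 8 h and 11.1, 9.64 and 11.1 at 12 h. IFN brought it to 205, 188 and 168 TPM under siFLuc at 8 h, 199.8, 187 and 163 at 12 h, and under siBOP1 218, 197 and 185 TPM at 8 h and 166, 209 and 153 at 12 h. Its IFN and mock groups did not overlap, and the ratio of group means stayed within a small range, 16.998, 15.9, 17.2 and 16.5. The corresponding log2 differences were 3.98, 3.87, 3.99 and 3.92 (SE 0.12; limma adjusted p from 3.34e-16 to 7.41e-16).

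PARP10, a mono-ADP-ribosyltransferase known to bind MYC, lies at chr8:143977153-144012772 on the minus strand of GRCh38. It was the lowest of the 9 in mock cells and had the highest ratio under IFN. It was at 0.443, 0.955 and 0.335 TPM in siFLuc mock libraries at 8 h, 1.61, 0.568 and 0.223 at 12 h, and in siBOP1 mock libraries at 0.533, 0.545 and 0.599 TPM at 8 h and 0.926, 0.663 and 0.824 at 12 h. Its IFN values were 85.2, 61.8 and 51.9 TPM under siFLuc at 8 h, 74.6, 74.4 and 75.04 at 12 h, and under siBOP1 80.5, 79.8 and 48.4 TPM at 8 h and 62.98, 81.05 and 80.9 at 12 h. All IFN libraries were above all mock libraries, but mock values differed widely under siFLuc at 12 h, from 0.223 in library 4 to 1.61 in library 1. Group means stood in ratios of 115, 93.1, 124 and 93.2, which rest on mock means under 1 TPM. On the log2(TPM + 1) scale, which understates changes of low genes, the differences were 5.40, 5.47, 5.46 and 5.39 (SE 0.24; limma adjusted p from 1.09e-13 to 1.43e-13). GRINA, the overlapping gene on the other strand, also rose, by 0.91 to 1.15 log2 units; its part in the PARP10 values was not tested.

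PARP8 rose from a low level to a modest one. It was at 2.34, 1.26 and 2.19 TPM in siFLuc mock libraries at 8 h, 2.07, 1.88 and 2.76 at 12 h, and in siBOP1 mock libraries at 1.53, 1.501 and 1.63 TPM at 8 h and 2.97, 1.79 and 3.05 at 12 h. With IFN it reached 9.38, 10.1 and 7.81 TPM under siFLuc at 8 h, 9.45, 9.33 and 8.24 at 12 h, and under siBOP1 8.37, 9.93 and 8.49 TPM at 8 h and 8.43, 10.02 and 9.56 at 12 h. No group pair overlapped, and the IFN means of 8.93 to 9.33 TPM were close to each other. Ratios of group means were 4.71, 4.03, 5.75 and 3.58, and log2 differences 1.80, 1.64, 1.96 and 1.54 (SE 0.17; limma adjusted p from 1.61e-08 to 7.25e-07).

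PARP11, a mono-ADP-ribosyltransferase with a WWE domain, was low everywhere. Its group means were 2.297 to 2.75 TPM in mock and 2.35 to 3.16 TPM in IFN groups, and all 4 pairs of groups overlapped. The siBOP1 IFN 8 h libraries differed most, at 1.51, 3.88 and 1.67 TPM. Its log2 differences under IFN were 0.26, 0.25, -0.03 and 0.06 (SE 0.23; limma adjusted p from 0.54 to 0.958), and their 95% intervals reached from -0.50 to 0.74.

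PARP1, the main sensor of DNA strand breaks, was the most abundant of the 9 in every mock group. It was at 66.4, 60.1 and 64.8 TPM in siFLuc mock libraries at 8 h, 63.1, 65.2 and 44.2 at 12 h, and in siBOP1 mock libraries at 63.3, 59.5 and 62.5 TPM at 8 h and 59.96, 60.4 and 60.5 at 12 h. IFN libraries had 58.04, 51.8 and 62.003 TPM under siFLuc at 8 h, 56.8, 52.8 and 57.5 at 12 h, and under siBOP1 53.8, 46.9 and 60.1 TPM at 8 h and 46.9, 46.2 and 53.02 at 12 h. Groups overlapped except under siBOP1 at 12 h, where the IFN mean was 80.7% of mock, and the siFLuc mock 12 h library numbered 4 stood apart from its group. How many of all genes lack overlap in that comparison was not computed. The IFN means were 89.8%, 96.9% and 86.8% of mock in the other 3 comparisons. In log2 units the differences were -0.16, -0.03, -0.21 and -0.31 (SE 0.12; limma adjusted p 0.48, 0.928, 0.267 and 0.0892). Without the siFLuc mock 12 h library numbered 4, PARP1 was called lower under siBOP1 at 12 h (-0.31, limma adjusted p 0.0217), and its difference under siFLuc at 12 h was -0.20. The other 23 of 24 fits with a library left out did not call PARP1 under siBOP1 at 12 h. The share of all genes called in such fits is not given here.

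PARP2, which also acts at DNA breaks, stood at 30.8, 27.1 and 38.05 TPM in siFLuc mock libraries at 8 h, 31.96, 28.4 and 36.7 at 12 h, and in siBOP1 mock libraries at 36.3, 31.7 and 33.6 TPM at 8 h and 30.7, 31.8 and 29.7 at 12 h. IFN values were 24.3, 21.98 and 29.98 TPM under siFLuc at 8 h, 23.2, 23.8 and 30.3 at 12 h, and under siBOP1 23.5, 22.5 and 29.7 TPM at 8 h and 21.8, 21.3 and 30.1 at 12 h. In siBOP1 cells at 8 h all IFN libraries were below all mock libraries, and the other 3 pairs overlapped, with library 4 the highest IFN library each time. How many of all genes lack overlap at 8 h under siBOP1 was not computed. IFN means were 79.5%, 79.6%, 74.5% and 79.5% of mock. The log2 differences were -0.32, -0.32, -0.42 and -0.34 (SE 0.16; limma adjusted p 0.231, 0.194, 0.0769 and 0.166), where 5.07%, 6.43%, 9.11% and 7.58% of all genes were called lower. Between libraries of the same number, IFN was below mock in 11 of 12 cases for PARP2 and in 11 of 12 for PARP1. The share of all genes with as many was not computed. The median difference of all genes under IFN was also below 0 in all 4 comparisons, and median-of-ratios rescaling raised it by 0.05 to 0.14 log2 units. Among 10 other settings, PARP2 under siBOP1 at 8 h ranged from -0.54 to -0.26 and was called in 3. With the library number as a block, PARP2 was called lower in all 4 comparisons (limma adjusted p 0.0371, 0.0288, 0.00593 and 0.0224) and PARP1 under siBOP1 at 12 h (0.0421). In that fit 12.7%, 15.8%, 20.4% and 16.6% of all genes were also called lower. Leaving out the siBOP1 IFN library numbered 4 gave PARP2 calls at 8 h (-0.54, limma adjusted p 0.0378) and at 12 h (-0.49, limma adjusted p 0.0429). In each of these comparisons the other 23 of 24 fits with a library left out gave no PARP2 call. The share of all genes called in such fits is not given here.

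The order of the 9 genes by level changed with IFN. In mock cells it ran PARP1, PARP2 and then PARP14, with PARP12, DTX3L and PARP9 next at group means of 8.37 to 12.1 TPM. Neighbours in the order overlapped among PARP14, PARP12, DTX3L and PARP9 under siFLuc, while under siBOP1 PARP14 stood above the next gene. PARP11 and PARP8 followed, overlapping in 3 of 4 mock groups, and PARP10 was last. With IFN the order in all 4 groups was PARP14, PARP12, PARP9, DTX3L, PARP10, PARP1, PARP2, PARP8 and PARP11. PARP12 and PARP9 overlapped there except under siBOP1 at 8 h, and PARP10 and PARP1 overlapped at 8 h. The 9 genes summed to 141 to 149 TPM in mock and 889 to 984 TPM in IFN groups (group means). PARP1 made up 40.4% to 44.5% of that sum in mock and 5.49% to 6.13% with IFN, and PARP14 8.83% to 11.9% and 28.98% to 32.9%.

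Depletion of BOP1 left all 9 genes without a call in each of the 4 comparisons with siFLuc (mock and IFN, 8 and 12 h). Among all genes, 2.16% and 1.6% were called in mock cells at 8 and 12 h and 2.0% and 0.66% in IFN cells. In mock cells at 8 h the calls split into 240 higher and 107 lower, 204 and 152 after median-of-ratios rescaling, and 227 and 168 after quantile normalization. At an unadjusted p under 0.05, PARP14 alone of the 9 passed, in mock cells at 8 h, where it was 0.32 higher (limma adjusted p 0.282). So did 2076 of all 16062 genes in that comparison. Averaged over the 4 comparisons, 16.9% of all genes were called and none of the 9, whose differences ran from -0.07 (PARP11) to 0.15 (PARP14). With 9 genes, the lack of a call cannot be told apart from that share. PARP14 was 0.15 higher under siBOP1 (SE 0.07, unadjusted limma p 0.0335, adjusted p 0.132), where 4645 of all 16062 genes had an unadjusted p under 0.05. With the library number as a block the limma adjusted p of PARP14 was 0.0256. That block called 15.8% of all genes higher.

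The IFN response with and without BOP1 depletion was compared as an interaction. None of the 16062 genes was called by limma, 396 had an unadjusted p under 0.05, and of the 9 only PARP14 was among them. The IFN difference of PARP14 was 0.28 log2 units smaller under siBOP1 (coefficient -0.28, 95% interval -0.55 to -0.0018, unadjusted p 0.0486, adjusted p 1). For PARP9 the coefficient was -0.30 (interval -0.63 to 0.026), and for DTX3L -0.19 (-0.47 to 0.086). PARP12 and PARP8 had coefficients of 0.03 each, and the PARP10 interval ran from -0.50 to 0.48.

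The IFN difference of PARP14 was smaller at 12 h than at 8 h by 0.44 log2 units (coefficient -0.44, SE 0.13, unadjusted p 0.00347), which did not pass adjustment (limma adjusted p 0.47). In this test of time, 0.00623% of all genes were called and none of the 9. PARP14 alone of the 9 had an unadjusted p under 0.05, as did 1085 of all 16062 genes. With the libraries numbered 1 and 2 alone the PARP14 coefficient was -0.61 and passed (adjusted p 0.0388), where 0.0872% of all genes were called lower. PARP8 had a coefficient of -0.29 and DTX3L of -0.18, neither called, and the other 6 lay between -0.13 and 0.04.

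**Figure D4:**
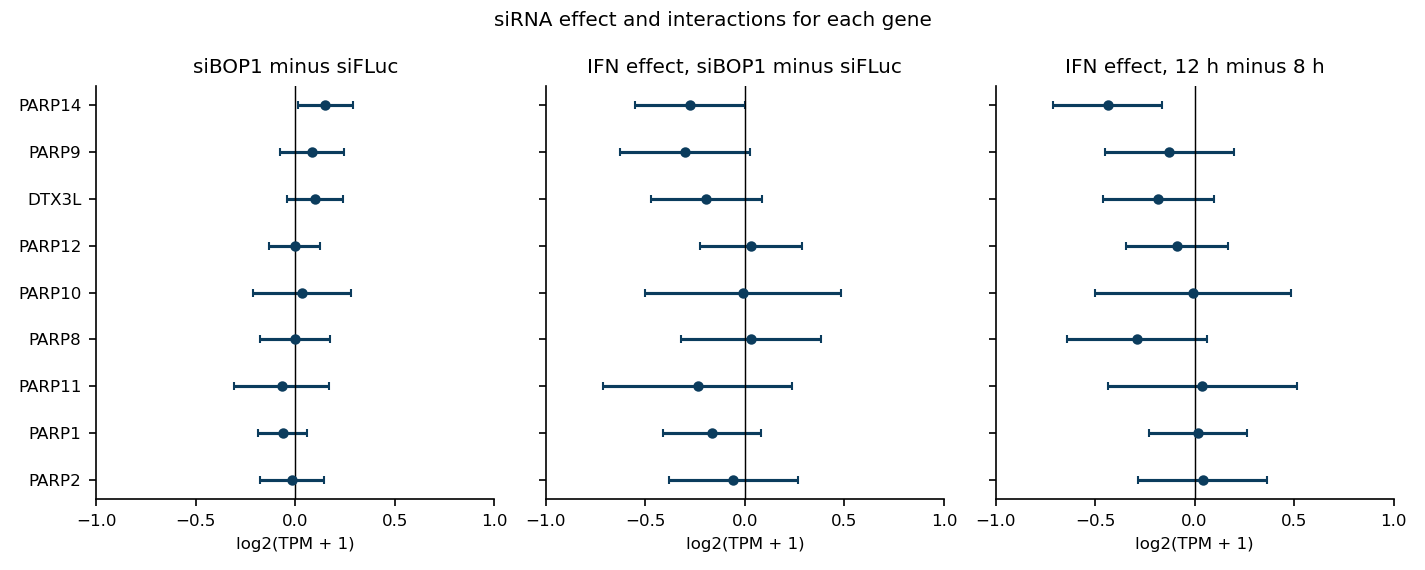
Coefficients with 95% confidence intervals from limma, in log2(TPM + 1) units, for the mean siBOP1 minus siFLuc difference (left), the difference of the IFN effect between siBOP1 and siFLuc (middle) and between 12 h and 8 h (right). PARP14 is at 0.15, -0.28 and -0.44, and no coefficient passed the adjusted threshold.

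Beyond these 9, lists of related genes gave the following counts. Of the other PARP enzymes, 8 of 9 were tested (PARP15 was not). In the IFN comparisons 5.77% to 7.17% of all genes were called higher, and 3 of these 8 rose in each. These were PARP3, a DNA break enzyme, by 1.11 to 1.67 log2 units, PARP4, a part of vault particles, by 0.85 to 0.95, and ZC3HAV1, the antiviral protein ZAP, by 0.53 to 1.16. The ZC3HAV1 call under siBOP1 at 8 h was lost under quantile normalization (0.53, adjusted p 0.119). The medians over the 8 were 0.23, 0.27, 0.18 and 0.26. TNKS, TNKS2, PARP6, TIPARP and PARP16 were not called. Of 4 further Deltex genes 3 were tested and none was called by limma under IFN. Under siBOP1 at 12 h 1 had an unadjusted p under 0.05, as did 4381 of all 16062 genes.

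Of 10 genes that remove ADP-ribose or degrade it, 1, 2, 2 and 2 rose with the comparisons ordered as above, and NUDT16 fell in the last by 0.38. Of all genes, 5.77%, 7.06%, 5.99% and 7.17% were called higher, and 7.58% lower in the last. NUDT16, like XRCC1 and NADK2 below, is named after its value was seen, and its call was lost under median-of-ratios scaling (-0.31, adjusted p 0.0514). ADPRS, which cleaves ADP-ribose from serine, rose by 1.13 to 1.26 log2 units in all 4 comparisons, and ADPRH, which cleaves it from arginine, by 0.53, 0.53 and 0.86 in the last 3. In the mean siBOP1 comparison, where 16.9% of all genes were called, 2 of these 10 were: PARG, which cuts the chains, 0.25 lower (limma adjusted p 0.00209), and the macrodomain hydrolase MACROD1, 0.66 higher (0.000315). Among 10 partners of PARP1 and single-strand break repair genes, none was called under siFLuc by limma. There 0 and 1 had an unadjusted p under 0.05 at 8 and 12 h, against 3659 and 4239 of all 16062 genes. Under siBOP1, 2 and 1 of the 10 fell at 8 and 12 h, where 9.11% and 7.58% of all genes were called lower. The siRNA by IFN interaction called none of them. TDP1, which removes trapped topoisomerase 1 from DNA, fell by 0.42 and 0.47 in the IFN comparisons under siBOP1 at 8 and 12 h. XRCC1, the scaffold of single-strand break repair, fell by 0.42 at 8 h under siBOP1. In the mean siBOP1 comparison TDP1 was 0.20 lower (coefficient -0.20, limma adjusted p 0.04995, just under the threshold). That was the 1 call of the 10 there, where 16.9% of all genes were called. Median-of-ratios scaling, which raised the median of all genes by 0.14 under siBOP1 at 8 h, left TDP1 at -0.27 and XRCC1 at -0.26 there, neither called (adjusted p 0.16 and 0.136).

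Of 13 genes that make NAD, the substrate of the PARP enzymes, or turn it into NADP, 3, 4, 4 and 6 rose in the same order. Of all genes, 5.77%, 7.06%, 5.99% and 7.17% were called higher. NADK2, the mitochondrial NAD kinase, fell under siBOP1 at 8 h by 0.68, where 9.11% of all genes were called lower. IDO1, the first step of the kynurenine route, went from 0 to 0.346 TPM in mock groups to 57.4 to 72.1 TPM with IFN (log2 differences of 5.69 to 6.05; group means). KMO, on the same route, rose by 0.95, 1.24 and 1.18 under siFLuc at 8 h and siBOP1 cells at 8 and 12 h, and KYNU by 0.34 and 0.35 at 12 h. IDO1 and KMO entered the test through their IFN libraries, with 0 and 1 of 12 mock libraries at 1 TPM or more. Both are in the counts above. Genes that pass the filter this way were selected for higher IFN values. KMO was still not called under siFLuc at 12 h (0.86, limma adjusted p 0.0543). Under quantile normalization KYNU under siBOP1 at 12 h was at 0.17 and not called (adjusted p 0.0717). NAMPT, the rate-limiting enzyme of NAD salvage, rose by 0.91 to 1.17. NMRK1, which phosphorylates nicotinamide riboside, rose by 0.97 and 0.53 at 12 h. NADK, which turns NAD into NADP, rose by 0.37 and 0.38 under siBOP1, the latter not called under quantile normalization (limma adjusted p 0.0564). Under siFLuc NADK differed by 0.32 and 0.36 at 8 and 12 h, not called (limma adjusted p 0.108 and 0.051). Median-of-ratios rescaling called both of these siFLuc differences (limma adjusted p 0.0361 and 0.0251). In the mean siBOP1 comparison, where 16.9% of all genes were called, 2 of the 13 were. These were NAMPT, 0.20 higher (limma adjusted p 0.0121), and QPRT, which turns quinolinate into an NAD precursor. QPRT had group means of 0.238 to 0.446 TPM under siFLuc and 0.745 to 1.01 TPM under siBOP1, and it entered the test through 3 siBOP1 libraries alone. Of the ISGF3 subunits, STAT2 rose by 3.74 to 4.2 and IRF9 by 2.58 to 2.99.

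Around DTX3L, the genes that rose by more than 1 log2 unit were the 3 members. Within 500 kb of either end of DTX3L, 15 protein-coding genes are annotated, of which PARP9, DTX3L and PARP14 are members. Of the other 12, 8 were tested and 4 (CD86, CASR, PARP15 and SEMA5B) were below the limit on level. PDIA5, a protein disulfide isomerase, was called under siBOP1 at 12 h, at 0.44 log2 units (limma adjusted p 0.013), where 7.17% of all genes were called higher. KPNA1, the nuclear import receptor next to PARP9, had differences of -0.01 to 0.19, none called.

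**Figure D5:**
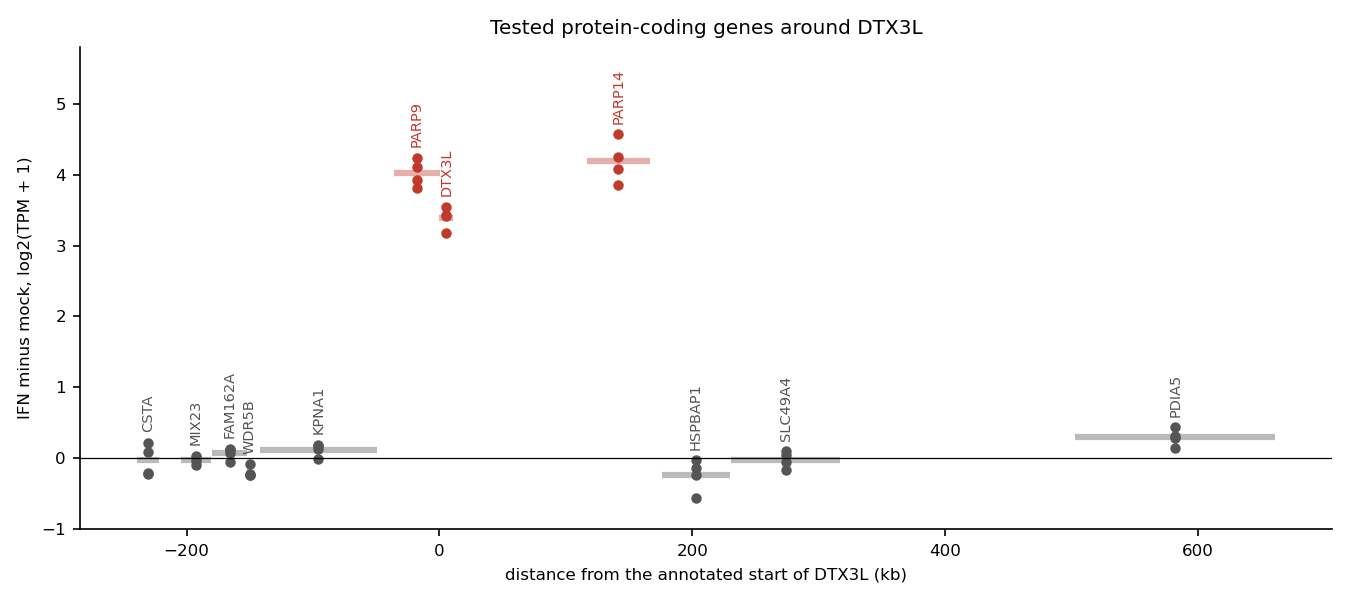
Difference between IFN and mock, in log2(TPM + 1), of the tested protein-coding genes around DTX3L against distance from its start in kb; each point is 1 of the 4 comparisons and each bar spans a gene at its mean difference. PARP9, DTX3L and PARP14 (red) lie between 3.17 and 4.57, and the 8 other genes (grey) between -0.56 and 0.44.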

How the data were processed

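Polyadenylated RNA of A549 cells was sequenced from an Illumina stranded mRNA preparation, per the labels' protocols. The authors deposited 1 table of TPM values, 60609 gene rows by 24 libraries. The aligner, quantification tool, genome build and annotation are not given in the sources used here, and depth is unknown, so no counting error could be attached. Column names gave the sample for 16 libraries; the 8 columns numbered 4 were tied to their group only, since the labels number replicates differently. Symbols came from a table of Ensembl identifiers (60340 rows named), and positions from GENCODE 29, whose identifiers carry the same version for 41779 rows.

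The 16062 genes that reached 1 TPM in 3 or more libraries entered limma 3.58.1 in R 4.3.3 on log2(TPM + 1), with 1 mean per group, an intensity trend and Benjamini-Hochberg adjustment over all genes (threshold 0.05). A fold change on this scale understates the change of low genes. Ratios of genes were tested with exact permutations within siRNA and time strata. The code was tested on simulated data. Deviations from the group means correlated between same-numbered libraries at 0.115 to 0.508 in every case, so the library number was treated as a possible pairing; number 4 comes from the column names alone, and whether a shift of those libraries gives the correlations was not tested. Alternatives were the pseudocount, the filter, 2 rescalings, no trend, the block, libraries 1 and 2 alone, and each library left out. The text names the 9 genes, list genes called in at least 2 IFN comparisons or in the mean siBOP1 comparison, called genes within 500 kb of DTX3L, and for each member the 3 genes of highest correlation; a few genes named by these rules are not reported here. The members and lists were chosen with earlier results of these data known.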

Additional observations from a re-analysis of the deposited data

How the results depend on the processing

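PARP8, PARP9, PARP10, PARP12, PARP14 and DTX3L kept their direction and call under IFN in every alternative run (pseudocount, filters, rescaling, trend, block, only the groups compared, libraries left out), and 6 to 8 of the 9 genes were called; PARP11 was not tested under the filter of a mean of 5 TPM. The PARP9 to DTX3L difference ranged from 0.56 to 0.65 log2 units. The PARP14 to PARP9 difference was 0.12 with a pseudocount of 0.1, 0.26 with libraries 1 and 2 alone (exact permutation p = 0.0185) and 0.14 to 0.19 with a library left out. With the replicate block on the library numbers, 1 of the 9 genes was called in the mean siBOP1 comparison (PARP14), and with libraries 1 and 2 alone under that block 1 (PARP1, -0.12, adjusted p 0.018). With libraries 1 and 2 alone, with or without the block, 1 gene was called in the test of time (PARP14). With these 2 libraries and the block, PARP1 and PARP2 were called lower under IFN in all 4 comparisons (limma adjusted p from 0.00168 to 0.0458 for PARP1 and from 0.000737 to 0.0211 for PARP2). Shares of all genes called in the fit of these 2 libraries with the block are not given here. With the block on all libraries, 12.7% to 20.4% of all genes were called lower under IFN. The block changed no other call among the 9. Counts over all genes moved more: 1741, 2166, 2426 and 2370 genes were called under IFN and 3370, 4326, 4653 and 4487 with the block. In the 4 siBOP1 comparisons 347, 257, 322 and 106 were called, 1364, 1231, 1415 and 606 with the block and 41, 10, 23 and 1 from only the groups compared. In the siFLuc 12 h IFN comparison that last fit called 951. The mean siBOP1 comparison had 2718 calls and 4769 with the block, and the test of time 1, 61 with the block and 46 from libraries 1 and 2 alone. The unknown depth limits what can be said of low values such as PARP10 in mock cells.

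Values near 0 that had no call changed sign. Median-of-ratios rescaling gave PARP1 in siFLuc cells at 12 h 0.033 and PARP11 in siBOP1 cells at 8 h 0.083; for the time by IFN test it gave PARP1 -0.045, PARP2 -0.019 and PARP11 -0.0044, and for the siRNA by IFN test PARP10 0.023. Quantile normalization gave PARP11 in siBOP1 cells at 8 h 0.12, PARP10 0.044 in the siRNA by IFN test, and in the time by IFN test PARP1 -0.0040, PARP2 -0.0018, PARP11 -0.049 and PARP12 0.015. Libraries 1 and 2 alone, with and without the block, gave in the mean siBOP1 comparison PARP2 0.038, PARP10 -0.056 and PARP11 9.53e-05, in the siRNA by IFN test PARP8 -0.073 and PARP10 0.19, and in the time by IFN test PARP1 -0.052 and PARP2 -0.0053. The cause was not tested.

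With each library left out, sign changes lay in these ranges. In the siFLuc 12 h comparison PARP1 ran from -0.20 to 0.074, and PARP11 in siBOP1 cells from -0.33 to 0.15 at 8 h and from -0.019 to 0.11 at 12 h. In the mean siBOP1 comparison PARP2 ran from -0.054 to 0.017, PARP8 from -0.046 to 0.042, PARP10 from -0.027 to 0.11 and PARP12 from -0.034 to 0.024. In the siRNA by IFN test the ranges were -0.14 to 0.0022 for PARP2, -0.058 to 0.12 for PARP8, -0.16 to 0.11 for PARP10 and -0.034 to 0.087 for PARP12. In the time by IFN test they were -0.072 to 0.065 for PARP1, -0.037 to 0.10 for PARP2, -0.13 to 0.15 for PARP10 and -0.065 to 0.19 for PARP11. For the 12 h against 8 h ratios they were -0.029 to 0.048 for PARP14 to DTX3L with IFN and -0.082 to 0.020 for PARP14 to PARP9 in mock cells.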

Other observations

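The balance of the chromosome 3 genes also differed between 12 h and 8 h. These 6 ratio tests were chosen after the values were seen, each over 12 libraries with the siRNA as stratum, and are adjusted with the 2 ratio tests of the report over 8 tests. The adjustment does not correct for that choice. The log2 ratio of PARP14 to DTX3L is that of PARP14 to PARP9 minus that of DTX3L to PARP9. Its difference with time therefore follows from theirs and is not a separate result. With IFN, the log2 ratio of PARP14 to PARP9 was lower at 12 h by 0.34 (coefficient -0.34) and that of DTX3L to PARP9 by 0.35 (coefficient -0.35), each with a two-sided exact permutation p of 0.005, the smallest that 400 arrangements can give (adjusted 0.008). PARP14 to DTX3L differed by 0.01 (exact permutation p = 0.83). In mock cells DTX3L to PARP9 was also lower at 12 h (coefficient -0.29, exact permutation p = 0.005, adjusted 0.008), while PARP14 to DTX3L was higher (0.27, exact permutation p = 0.005, adjusted 0.008) and PARP14 to PARP9 differed by -0.03 (exact permutation p = 0.765, adjusted 0.83). Whether the change with time differed between IFN and mock cells was not tested.

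Over the 24 libraries and 10579 genes with a mean of at least 5 TPM, the genes of most similar pattern were named for each member by Pearson r on log2(TPM + 1). The 24 points share the 8 groups, so r mostly reflects differences between groups. PARP9 had MX1 and TNFSF10 among its closest genes, and PARP10 had TNFSF10 and XAF1. PARP12 was closest to MX2, IFI44L and RSAD2, PARP14 to IFIH1, APOL6 and IFI44L, and DTX3L to SAMD9L, TRIM14 and IFIH1. For these 5 members r was 0.996 to 0.998. PARP8 followed OPTN, TRIM38 and PPM1K at 0.982 to 0.984. PARP2 followed WDR5 and DYNC2I2 at 0.933 to 0.939, and PARP1 followed ABCE1, TFB2M and XRCC2 at 0.833 to 0.858. PARP11 had no close match, with PIAS1 at 0.66, RBMXL1 at 0.597 and ZMYM4 at 0.593.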
